A study of Mus musculus with 4 samples.

Results

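Transcription factors that give newly formed neurons their subtype identity were followed across 4 arrays of mouse cells, 1 for each condition. The group has 9 genes, Ebf1, Ebf2, Ebf3, Onecut1, Onecut2, Isl1, Lhx1, Phox2a and Pou4f1, taken by name as the probe sets whose only annotated gene symbol is one of them. Each gene has 1 such probe set, and together they are 9 of 19938 genes measured in this way. The conditions were EBs treated with bexarotene, an agonist of RXR, EBs treated with RA, the natural ligand of RAR, EBs left without ligand, and undifferentiated ES cells of the same line, named D3 in the article. EBs, aggregates in which ES cells start to form derivatives of the germ layers, spent 2 days in hanging drops and 5 days in suspension and were collected at day 7. Bexarotene was given at 50 nM, and RA at 5 µM by the labels or 10 nM by the article, so either source gives the ligands unequal doses. The labels name no allele, transgene or sorting step. The values are log2 signal, as normalized by the authors.

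Each condition has 1 array without a replicate, so differences are between single arrays and carry no p-value. A difference is called past 1.5-fold where its size is at least 0.585 on the log2 scale, the article's threshold. The 4 arrays have medians between 6.66 and 6.69 over 35556 probe sets. Bexarotene minus RA, the most alike pair of arrays, had a robust SD between 0.11 and 0.14 over genes of similar signal to the 9 factors, which sets no bound on the spread between cultures. The labels were checked with 4 pluripotency genes, and Zfp42 stood at 6.50 with bexarotene, 6.80 with RA and 6.14 in untreated EBs, against 10.1 in ES cells, while Pou5f1, Nanog and Esrrb were also highest in ES cells. In such bulk RNA, a change in how many cells of a type are present and a change in RNA per cell cannot be told apart.

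As neuron progenitors leave the cell cycle, proneural factors of the basic helix-loop-helix class switch on a later layer of factors, and combinations of these fix which neuron forms. The Ebf genes encode helix-loop-helix factors that act just after the proneural step and help young neurons migrate and mature. Onecut factors, with a cut domain and a homeodomain, work in motor neurons and other early neurons. Isl1 and Lhx1 belong to the LIM homeodomain factors that divide motor neurons and spinal interneurons into classes. Phox2a specifies noradrenergic and cranial motor neurons, and Pou4f1 specifies sensory neurons. Several of them also work outside the nervous system, Isl1 in heart progenitors and pancreas, Lhx1 in the gastrula organizer and intermediate mesoderm, Onecut1 in liver and pancreas, and Ebf1 in B cells and fat precursors.

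The factors fell into 3 patterns. Ebf1, Ebf2, Ebf3, Onecut1 and Onecut2 were highest with RA, next highest with bexarotene and lower in untreated EBs. Isl1 and Lhx1 were highest in untreated EBs, and past 1.5-fold lower with RA for Isl1 and with bexarotene for Lhx1. Phox2a and Pou4f1 spanned less than 1.5-fold over all 4 arrays. Relative to untreated EBs, 4 of the 9 factors were past 1.5-fold higher with bexarotene, where 1.48% of all genes were, and 1 was past it lower, where 2.15% of all genes were. With RA, 5 were past 1.5-fold higher, against 2.07% of all genes, and 1 was lower, against 2.22%. The median log2 difference of the 9 factors from untreated EBs was 0.51 with bexarotene and 0.85 with RA, while the median of all genes was -0.01 and 0.00. Both comparisons use the same untreated array, so they are not independent of each other.

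**Figure D1:**
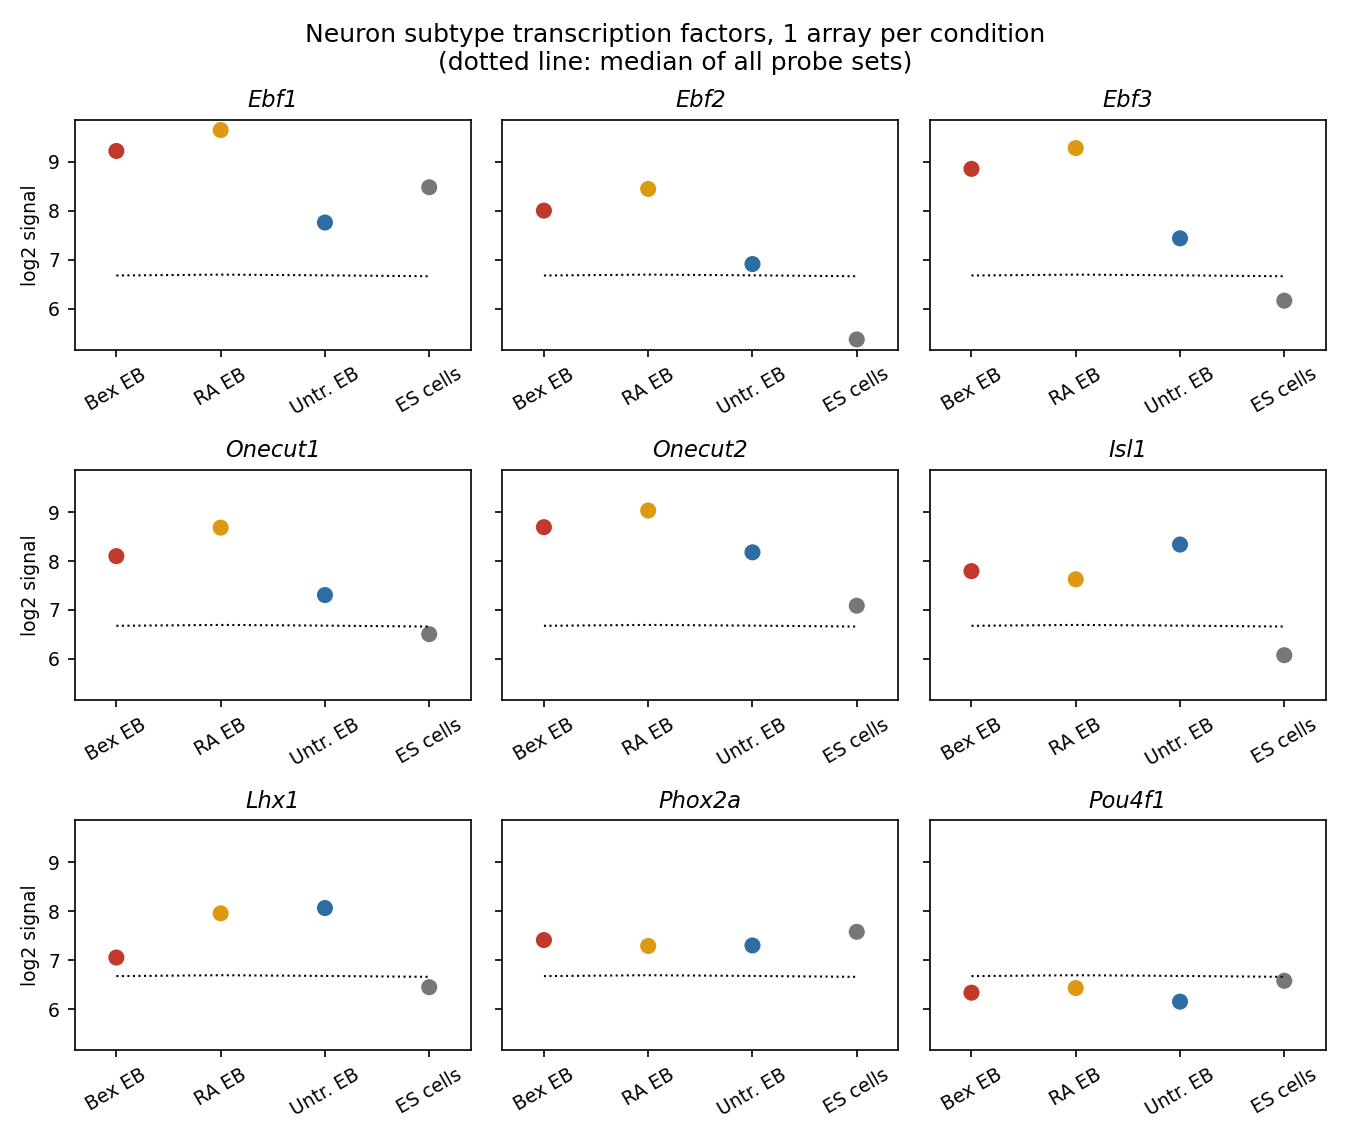
Log2 signal (y axis) of the 9 neuron subtype factors in bexarotene-treated, RA-treated and untreated EBs and in ES cells (x axis), with 1 point per array and the median of all probe sets as a dotted line. Ebf2 stands at 8.00 with bexarotene and 8.45 with RA against 6.91 in untreated EBs, whereas Phox2a lies between 7.29 and 7.58 on all 4 arrays.

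The promoters of 4 factors are printed, after the sequences had been read, with Ebf3 and Onecut1 from the first pattern, Lhx1 from the second and Phox2a from the third. The first 3 hold a motif marked in them, and Phox2a stands for the windows without it. Each is the 250 bases before the annotated start, on the strand of the gene, from RefSeq on build GRCm38.p6. Ebf3 lies at chr7:137314446-137314695 on the minus strand, Onecut1 at chr9:74861671-74861920 on the plus strand, Lhx1 at chr11:84525535-84525784 on the minus strand and Phox2a at chr7:101818063-101818312 on the plus strand. Capitals mark TGACGT or its reverse complement ACGTCA, the core bound by CREB and ATF proteins.
Ebf3: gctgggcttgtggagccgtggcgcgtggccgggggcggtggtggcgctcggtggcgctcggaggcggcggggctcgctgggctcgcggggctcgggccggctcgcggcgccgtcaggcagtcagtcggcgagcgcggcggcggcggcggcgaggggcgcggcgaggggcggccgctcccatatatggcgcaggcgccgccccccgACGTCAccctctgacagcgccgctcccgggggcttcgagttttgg
Onecut1: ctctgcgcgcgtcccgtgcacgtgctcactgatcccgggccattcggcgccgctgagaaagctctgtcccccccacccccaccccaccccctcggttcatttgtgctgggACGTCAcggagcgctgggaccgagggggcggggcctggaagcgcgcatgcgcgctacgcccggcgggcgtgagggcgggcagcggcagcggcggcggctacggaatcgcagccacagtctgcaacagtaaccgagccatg
Lhx1: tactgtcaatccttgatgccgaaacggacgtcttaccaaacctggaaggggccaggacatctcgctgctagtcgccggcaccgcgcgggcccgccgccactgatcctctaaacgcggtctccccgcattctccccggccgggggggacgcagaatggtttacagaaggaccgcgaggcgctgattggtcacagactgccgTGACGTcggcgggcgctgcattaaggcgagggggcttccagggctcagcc
Phox2a: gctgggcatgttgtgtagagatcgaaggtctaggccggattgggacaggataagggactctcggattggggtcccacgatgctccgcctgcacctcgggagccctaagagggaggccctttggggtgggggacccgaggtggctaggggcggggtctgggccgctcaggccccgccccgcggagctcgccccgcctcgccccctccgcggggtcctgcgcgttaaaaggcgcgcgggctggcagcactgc

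In all, 8 such windows were searched for 7 of the factors, with 2 starts for Ebf1. No window was found for Ebf2, so it was not searched. Chromosome 18, where Onecut2 lies, was left out for the factors and not for all genes. The marked core was picked after these sequences had been read, and it is in 4 of the 8 windows, those of Ebf3, Onecut1, Isl1 and Lhx1, in neither window of Ebf1 nor those of Phox2a and Pou4f1, and in 6.47% of 32851 windows of all genes. Its last base lies 40 bases before the start in Ebf3, 45 in Lhx1, 54 in Isl1 and 135 in Onecut1. The 4 windows with the core are rich in G and C, from 64.8% in Lhx1 to 80.0% in Ebf3. The median over all windows is 52.4%. Of the windows without the core, those of Phox2a (70.4%) and Pou4f1 (78.0%) are also above this median, and both windows of Ebf1 are below it. The part of base composition in the match to the core was not tested. The core hexamer of retinoid receptor sites, AGGTCA, searched like all these motifs on both strands, is in none of the 8 windows and in 14.0% of all windows. The E-box CAGCTG, a form bound by proneural factors, is in 2 windows, those of Isl1 and Pou4f1, and in 13.0% of all windows, and the E-box CAGATG is in none and in 14.4%. The palindrome CCCNNGGG of Ebf sites is in the window of Ebf3 and in 11.8% of all windows, and ATTGAT, read by Onecut proteins, is in none and in 6.72%. These matches describe letters and not bound sites.

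Among the Ebf genes, Ebf1, which was first known from B cells and is also made by young neurons of the striatum and spinal cord, had a log2 signal of 9.22 with bexarotene, 9.65 with RA, 7.76 in untreated EBs and 8.48 in ES cells. Both ligand arrays lay above untreated EBs, by 2.75-fold with bexarotene and by 3.71-fold with RA. These differences were the 49th and the 27th highest of 19938 genes. Untreated EBs were 1.65-fold lower than ES cells, and Ebf1 was the one factor of the 9 that was past 1.5-fold in that direction.

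Ebf2, a factor of migrating neurons and of brown fat precursors, had 8.00 with bexarotene, 8.45 with RA, 6.91 in untreated EBs and 5.37 in ES cells. Both ligand arrays exceeded untreated EBs, by 2.13-fold for bexarotene and 2.90-fold for RA. With RA it reached percentile 72.5 of all probe sets, against percentile 28.0 in ES cells. Ebf3, which acts in olfactory and cortical neurons, had 8.86 with bexarotene, 9.28 with RA, 7.44 in untreated EBs and 6.16 in ES cells. Its difference from untreated EBs was 2.68-fold with bexarotene and 3.59-fold with RA. Relative to ES cells, Ebf3 was 6.47-fold higher with bexarotene and 8.69-fold higher with RA, the largest differences from ES cells among the 9 factors. The remaining gene of the family, Ebf4, had 9.02 with bexarotene, 9.07 with RA, 8.86 in untreated EBs and 7.04 in ES cells. Its arrays ran in the same order as those of Ebf2 and Ebf3, but its log2 difference from untreated EBs was 0.16 with bexarotene and 0.20 with RA, short of the threshold.

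Set against untreated EBs, the Onecut genes differed less than Ebf1, Ebf2 and Ebf3 with the same ligand. Onecut1, also known as the liver factor HNF6, had a log2 signal of 8.10 with bexarotene, 8.68 with RA, 7.30 in untreated EBs and 6.51 in ES cells, and stood 1.74-fold above untreated EBs with bexarotene and 2.60-fold with RA. Onecut2 had 8.69 with bexarotene, 9.03 with RA, 8.18 in untreated EBs and 7.09 in ES cells. Its difference from untreated EBs was 1.43-fold with bexarotene, short of the threshold, and 1.81-fold with RA. Every EB array was past 1.5-fold above ES cells for both genes. Onecut3, the remaining gene of the family, lay between 6.94 and 7.17 on the 4 arrays.

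**Figure D2:**
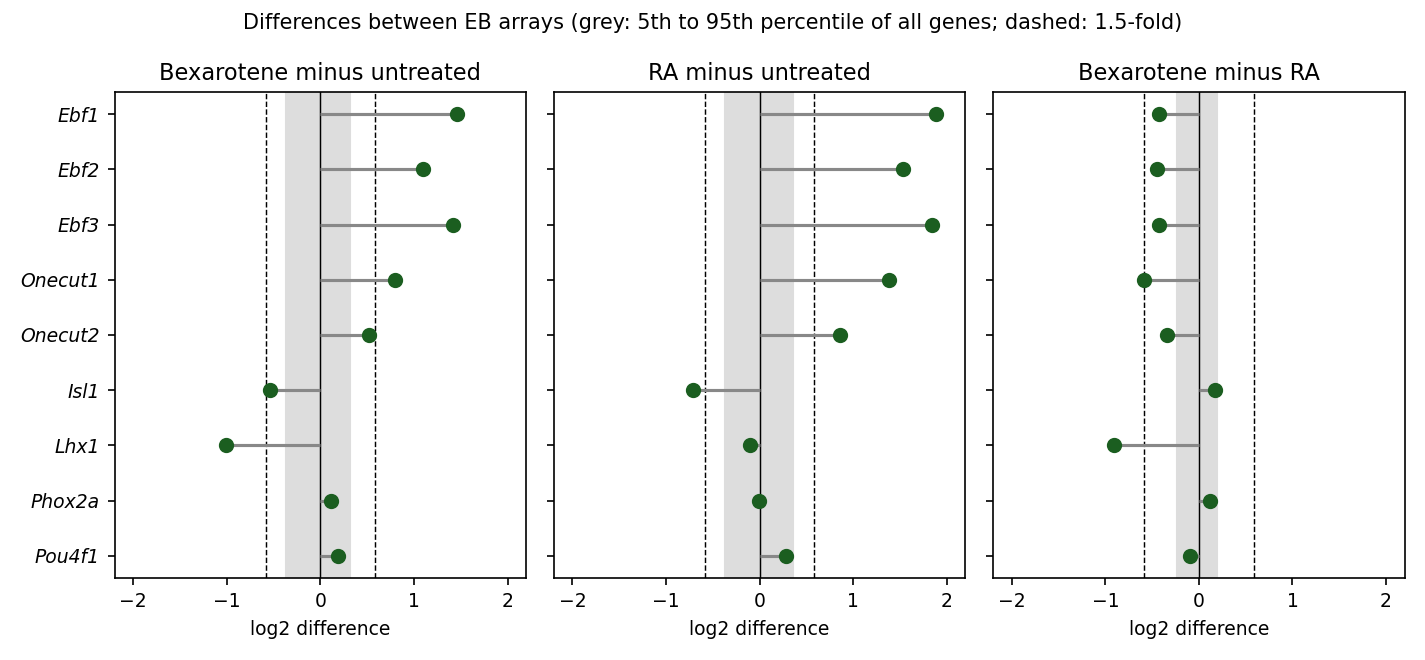
Log2 differences (x axis) of the 9 factors between EB arrays, as bexarotene minus untreated, RA minus untreated and bexarotene minus RA, with grey bands that span the 5th to 95th percentile of all genes and dashed lines at 1.5-fold. The Ebf genes lie to the right of 1.5-fold in the first and second panels (Ebf1 at 1.46 and 1.89), and Lhx1 lies to the left with bexarotene minus untreated (-1.01) and bexarotene minus RA (-0.90).

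Isl1, a LIM homeodomain factor of motor and sensory neurons and of the second heart field, had a log2 signal of 7.79 with bexarotene, 7.63 with RA, 8.34 in untreated EBs and 6.08 in ES cells. All 3 EB arrays were past 1.5-fold above ES cells, untreated EBs by 4.80-fold. Relative to untreated EBs, Isl1 was 1.64-fold lower with RA and had a log2 difference of -0.54 with bexarotene, which is not past the threshold. The cardiac marker list of 18 genes, for a tissue where Isl1 is also expressed, had 4 genes past 1.5-fold below untreated EBs under bexarotene and 6 under RA, and none above. Its mean log2 signal was 7.49 with bexarotene, 7.35 with RA, 7.78 in untreated EBs and 7.17 in ES cells. Between 4 and 7 of its genes were below the array median on each array. Of 9 measured motor neuron markers, the vesicular acetylcholine transporter Slc18a3 was past 1.5-fold higher with bexarotene (1.86-fold) and with RA (1.95-fold), and with RA Tbx20, a factor of cranial motor neurons and heart, was 1.57-fold lower. The mean of these 9 genes was 6.54 with bexarotene, 6.52 with RA, 6.43 in untreated EBs and 6.45 in ES cells, and 5 or 6 of them were below the array median on each array. The paralog Isl2 was 1.20-fold above untreated EBs with bexarotene and 1.09-fold with RA. The part of heart cells in the level of Isl1 was not tested.

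Lhx1 was the factor that set the ligands apart. Its log2 signal was 7.06 with bexarotene, 7.96 with RA, 8.07 in untreated EBs and 6.45 in ES cells. The bexarotene array was the nearest to ES cells, at 1.52-fold above them, while the RA and untreated arrays were 2.85-fold and 3.07-fold above them. Bexarotene was 2.02-fold below untreated EBs and 1.87-fold below RA, and the difference from RA was the 4th lowest of 19938 genes. With RA, the log2 difference from untreated EBs was -0.11. Its relatives Lhx5, which acts with Lhx1 in spinal and forebrain neurons, and Lhx2, a factor of forebrain and eye, had the same order among EBs, with bexarotene lowest and untreated highest. Lhx5 had 6.24 with bexarotene, 6.86 with RA, 7.90 in untreated EBs and 5.97 in ES cells, and lay 3.17-fold (bexarotene) and 2.05-fold (RA) below EBs without ligand. Lhx2 had 7.49 with bexarotene, 8.10 with RA, 8.31 in untreated EBs and 6.73 in ES cells, and differed from EBs without ligand by -0.82 with bexarotene and -0.21 with RA on the log2 scale.

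Lhx1 is also a gene of the anterior mesendoderm, and 12 markers of that tissue were measured. Under bexarotene 11 of them, and under RA 9, were past 1.5-fold below untreated EBs, led by the secreted antagonist Cer1 and the homeobox gene Hesx1, at 15.8-fold and 11.8-fold lower with bexarotene. Their mean log2 signal was 7.32 with bexarotene, 7.55 with RA, 8.94 in untreated EBs and 7.11 in ES cells, and from 2 to 4 of them were below the array median. Lhx1 with RA stayed near the untreated level while most of these markers were lower. Of 11 markers of intermediate mesoderm and kidney, another site of Lhx1, 3 were past 1.5-fold higher and 2 lower with bexarotene, and 2 were higher and 2 lower with RA. Their mean was 7.80 with bexarotene, 7.56 with RA, 7.69 in untreated EBs and 7.02 in ES cells, with 1 to 3 genes below the array median. The factor Osr1 of this list was 2.65-fold above untreated EBs with bexarotene and had a log2 difference of -0.30 with RA. The part of these tissues in the level of Lhx1 was not tested.

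**Figure D3:**
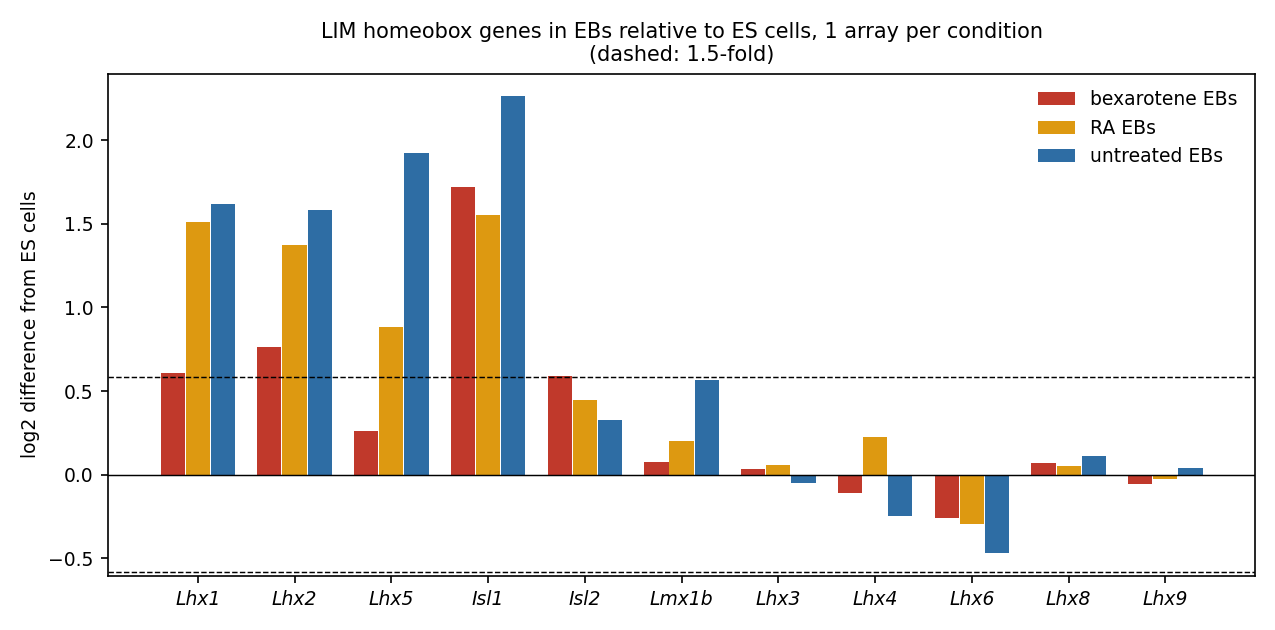
Log2 difference from the ES cell array (y axis) of 11 LIM homeobox genes in bexarotene-treated, RA-treated and untreated EBs, with 1 array per bar and dashed lines at 1.5-fold. For Lhx1, Lhx2 and Lhx5 the bexarotene bar is the shortest and the untreated bar the tallest (Lhx1 at 0.61, 1.51 and 1.62), while Isl1 is at 1.72, 1.55 and 2.26.

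Phox2a and Pou4f1 gave little. Phox2a had a log2 signal of 7.41 with bexarotene, 7.29 with RA, 7.30 in untreated EBs and 7.58 in ES cells, a range of 0.29. Pou4f1 had 6.34 with bexarotene, 6.43 with RA, 6.15 in untreated EBs and 6.58 in ES cells, below the median of every array, so a small difference in it may not be detectable. Markers of the neurons they specify were set against untreated EBs. The median log2 difference of the noradrenergic and autonomic list was 0.26 with bexarotene and 0.36 with RA. For the sensory list it was 0.12 and 0.18. Of 8 noradrenergic and autonomic markers, 3 were past 1.5-fold higher with bexarotene and 3 with RA, among them Ddc, an enzyme of monoamine synthesis, at 2.10-fold and 2.02-fold, and the vesicular monoamine transporter Slc18a2 at 1.69-fold and 2.04-fold. The receptor gene Ret was 2.84-fold higher with bexarotene and 1.62-fold with RA. With RA, Gata3 was past 1.5-fold lower, at 1.75-fold. Dbh, Th and Slc6a2 of the noradrenergic list were short of the threshold with either ligand. Their log2 differences from untreated EBs were 0.34, -0.02 and 0.19 with bexarotene and 0.23, 0.39 and 0.33 with RA. Dbh and Slc6a2 lay below the median of every array. Of 12 sensory neuron markers, 2 were past 1.5-fold higher with each ligand, Ret again and the neurotrophin receptor Ntrk2 (1.56-fold with bexarotene, 1.89-fold with RA). For bexarotene minus RA, the noradrenergic list had a median of 0.07 and the sensory list one of 0.04. The mean log2 signal of the noradrenergic list was 7.25 with bexarotene, 7.15 with RA, 6.79 in untreated EBs and 6.43 in ES cells. That of the sensory list was 7.20 with bexarotene, 7.13 with RA, 6.91 in untreated EBs and 6.81 in ES cells. On each array, 2 to 4 of the 8 noradrenergic genes and 6 to 8 of the 12 sensory genes were below the array median.

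Between the ligands, 7 of the 9 factors had a lower signal with bexarotene than with RA, and the median log2 difference was -0.43, where that of all genes was -0.01. Only Lhx1 was past 1.5-fold lower, against 0.296% of all genes, and none was past it higher, against 0.196%. Onecut1 came next, at -0.58 just short of the threshold, followed by Ebf2 at -0.44, Ebf1 and Ebf3 at -0.43 and Onecut2 at -0.34. The 3 Ebf genes thus differed by nearly the same amount. Isl1 was the highest of the 9 relative to RA, at a log2 difference of 0.17. Because the doses differ, these values describe a pair of arrays at the doses used.

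Relative to ES cells, 6 factors were past 1.5-fold higher in untreated EBs, where 11.0% of all genes were, and 1 was lower, where 8.52% were. In EBs with bexarotene, 7 were higher, against 10.2% of all genes, and none was lower, against 9.69%. In EBs with RA, 7 were also higher, against 10.5%, and none was lower, against 9.19%. Isl1 led in untreated EBs, at a log2 difference of 2.26, and Ebf3 led with either ligand, at 2.69 with bexarotene and 3.12 with RA.

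Genes of the steps before and after these factors were counted in the same way. Bexarotene had 7 of 13 upstream proneural factors past 1.5-fold higher than untreated EBs, RA likewise had 7, and neither had any past it lower. The bHLH gene Nhlh1 was 6.15-fold higher with bexarotene and 9.41-fold with RA, Neurod4 6.36-fold and 8.61-fold, Neurod1 3.19-fold and 4.06-fold and Neurog1 2.64-fold and 3.65-fold. Among 20 genes of all young neurons, bexarotene had 11 and RA 13 past 1.5-fold higher, and neither had any past it lower. The microtubule protein gene Dcx of migrating neurons was 4.63-fold higher with bexarotene and 8.99-fold with RA, and the neurofilament gene Nefm 3.82-fold and 4.73-fold. The RNA-binding protein gene Elavl4 was 2.74-fold higher with bexarotene and 3.92-fold with RA, and the intermediate filament gene Ina 2.91-fold and 3.90-fold. All 20 had a lower signal with bexarotene than with RA, with a median log2 difference of -0.38 that is close to the -0.43 of the 9 factors, and 2 of them were past 1.5-fold. For the proneural factors the median was -0.27, with 12 of 13 lower.

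Other neuron subtype factors did not share the higher signal of the Ebf and Onecut genes. Of 29 measured, 1 was past 1.5-fold higher and 4 lower with bexarotene, and 1 was higher and 6 lower with RA, with medians of 0.04 and 0.07. The lower genes included En1, a homeobox gene of the midbrain and of spinal interneurons, at 3.61-fold with bexarotene and 2.29-fold with RA, Barhl2, of dorsal interneurons, at 1.83-fold and 1.68-fold, and Sim1, of ventral interneurons, at 1.68-fold and 1.84-fold. Gata2 was the 1 gene past it higher with bexarotene, but only just, at a log2 difference of 0.5853. With RA it had 0.5652, just short of the threshold, and bexarotene minus RA was 0.02, so Gata2 hardly differed between the ligands. Prdm8 was the 1 gene past it higher with RA, at 1.85-fold (1.47-fold with bexarotene). Of 12 measured relatives from the families of the 9 factors, none was past 1.5-fold higher with either ligand, Lhx2 and Lhx5 were lower with bexarotene and Lhx5 was lower with RA. Of 19 spinal interneuron markers, 2 were past 1.5-fold higher and 4 lower with bexarotene, and 2 higher and 5 lower with RA. The higher genes were Slc17a6, at 1.66-fold with bexarotene and 1.89-fold with RA, Gata2 with bexarotene and Slc6a5 with RA, at 1.53-fold. Slc17a6 and Slc6a5 lay below the median of every array. The lower genes were Skor1, at 1.78-fold and 1.80-fold, and En1, Barhl2, Lhx5 and, with RA only, Gata3. All but Skor1 were already in the counts of subtype factors or relatives.

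**Figure D4:**
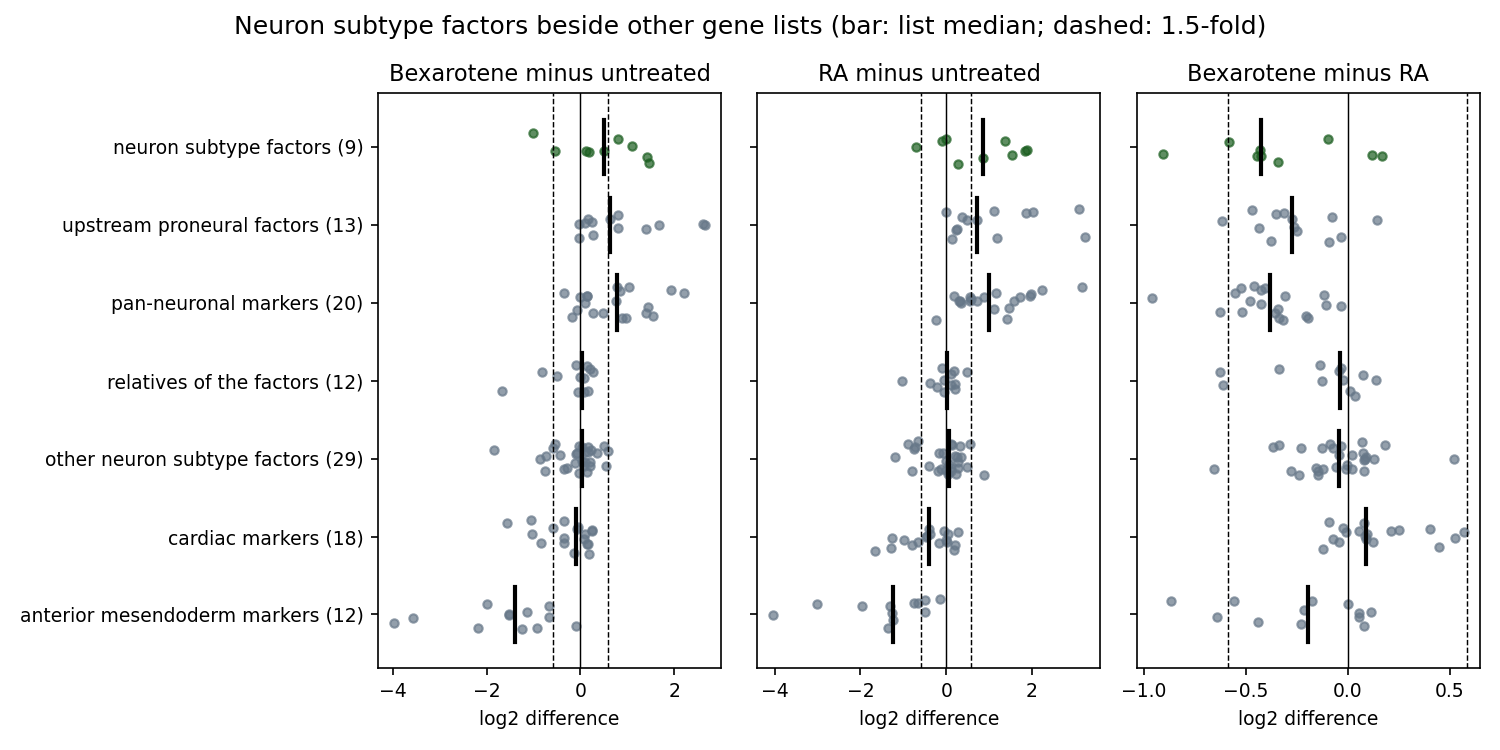
Log2 differences between EB arrays (x axis) for the 9 neuron subtype factors and 6 gene lists, with 1 point per gene, list medians as bars, measured genes in parentheses and dashed lines at 1.5-fold. Upstream proneural factors and genes of all young neurons lie to the right in the first and second panels (medians 0.63 and 0.77 with bexarotene, 0.71 and 1.0 with RA) and anterior mesendoderm markers to the left (-1.38 and -1.25).

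Markers of other tissues that use Ebf or Onecut genes were counted too, and the part of these tissues in the levels of the factors was not tested. Of 15 markers of mesenchyme and fat precursors, Prrx2 was past 1.5-fold higher and 3 were lower with bexarotene, and none was higher and 5 were lower with RA. The log2 difference of Prrx2 from untreated EBs was 0.69 with bexarotene and -0.26 with RA. Among the lower genes, this difference was -1.54 with bexarotene and -1.02 with RA for the matrix gene Postn, and -0.93 and -1.23 for the homeobox gene Prrx1. The receptor gene Pdgfrb was past the threshold with RA, at -0.87, and had -0.50 with bexarotene. The mean of the list was 7.57 with bexarotene, 7.45 with RA, 7.86 in untreated EBs and 6.81 in ES cells. Of these 15 genes, 2 were below the array median with bexarotene, 3 with RA, 2 in untreated EBs and 6 in ES cells. Of 9 B cell markers, none was past 1.5-fold higher with either ligand and Pax5 was lower, at 1.87-fold with bexarotene and 1.60-fold with RA. Their mean lay between 5.76 and 5.92 on the 4 arrays, with 6 or 7 of 9 below the array median. Of 14 markers of liver and pancreas endoderm, none was higher and 3 were lower with each ligand, among them Foxa1 at 5.84-fold with bexarotene and 5.89-fold with RA. Their mean was 7.86 with bexarotene, 7.89 with RA, 8.18 in untreated EBs and 6.94 in ES cells, with 2 to 7 genes below the array median.

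The genes whose profile over the 4 arrays was most like that of each factor were found among 12016 other genes by the Euclidean distance between profiles after subtraction of each gene's mean. Phox2a and Pou4f1 were left out because they spanned less than 1.5-fold. Ebf3 was nearest to Elavl4 (distance 0.12), then to the homeobox gene Dbx1 of spinal interneuron progenitors and to Cp. Elavl4 had 8.00 with bexarotene, 8.52 with RA, 6.55 in untreated EBs and 5.41 in ES cells. Ebf1 was nearest to Rtn1 (0.24), the neurofilament gene Nefl (0.27) and the acetylcholine receptor subunit Chrna5 (0.27). That these genes were also higher in ES cells than in untreated EBs follows from their choice by profile. Ebf2 was nearest to Rfx4 (0.22), a factor of neural progenitors, Adgrg1 and the POU factor Pou3f4.

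Onecut1 was nearest to Srrm4 (0.15), a splicing regulator of neurons, the receptor gene Gfra1 (0.16) and the neuronal kinase Brsk2 (0.16). Onecut2 was nearest to Gdpd2 (0.08), Nsg1, a membrane protein of neurons, and Sncaip. Isl1 was nearest to Lix1 (0.08), Lpar4 and Prkd1, and Lhx1 to Lhx2 (0.21), Cpe and Thsd7a. Among the factors themselves, Ebf2 and Ebf3 (0.26) and Onecut1 and Onecut2 (0.37) were each other's closest pairs with a span past 1.5-fold. With 4 points to a profile, many genes lie near one another, and these distances are a description.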

How the data were processed

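RNA was profiled on 4 Affymetrix arrays, 1 each for bexarotene-treated, RA-treated and untreated day 7 EBs and ES cells, with no replicate. The authors deposited 1 log2 signal for each probe set and array, made in Affymetrix Expression Console by RMA (article) or GCRMA (submitters' processing notes), which correct background, normalize between arrays and combine probes. Such normalization makes the arrays alike as a whole and narrows differences of weak probe sets. The platform annotation gives 1 gene symbol for 21789 of 35556 probe sets. These stand for 19938 genes, and a gene with several probe sets was represented by the one with the highest mean. Differences were taken between arrays on the log2 scale, at a threshold of 1.5-fold from the article's methods, without a test.

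The 9 factors and the 14 gene lists, of 224 entries, were chosen with earlier results of these data known. Some genes, such as Gata3, Ret and Tbx20, stand in several lists, so the list counts are not independent of each other. All 9 factors are named, with the nearest 3 genes to each profile, genes from the up to 4 with the largest ligand difference in each list, not all of which are given, and relatives past 1.5-fold. Onecut3, Pou5f1, Nanog, Zfp42, Esrrb, Stmn2, Mapt, Syt4, Map2, Olig2, Gata2, Dbh, Slc6a2, Th, Slc17a6 and Slc6a5 were named after their values were seen. List genes without a probe set of their own symbol were not analysed here. Alternatives were a 2-fold threshold, quantile normalization, a floor at the 25th percentile, loess to the average of the arrays (span 0.3), the mean of probe sets and leaving out genes below the median of both arrays. Calculations used Python 3.11.15, pandas 2.3.3, numpy 2.4.6, scipy 1.17.1 and statsmodels 0.14.6 and were tested on simulated data.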

Additional observations from a re-analysis of the deposited data

How the results depend on the processing

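With 1 array per condition no result has a replicate check, and no paired analysis was possible because each condition has a single array. The 54 log2 differences of the 9 factors over 6 comparisons moved by at most 0.0836 under quantile normalization and 0.0704 under loess, less than the spread between the bexarotene and RA arrays at the same signal, and none changed sign among those past 1.5-fold. The floor and the mean of probe sets could not move them, because each factor has 1 probe set and lies above the 25th percentile of every array. Leaving out genes below the median of both arrays removed only Pou4f1, which is never past 1.5-fold, so it could not move the counts. Under quantile normalization and loess, the counts of factors past the threshold did not change. At 2-fold, the count of factors lower in untreated EBs, set against ES cells, was 0 in place of 1, that of factors lower with RA than without ligand was 0 in place of 1, and that of factors lower with bexarotene than with RA, which is also the count in either direction, was 0 in place of 1. The count lower with bexarotene than without ligand stayed 1. Factors higher than untreated EBs were 3 in place of 4 with bexarotene and 4 in place of 5 with RA. Factors higher than ES cells were 5 in place of 6 in untreated EBs and 5 in place of 7 with bexarotene, and stayed 7 with RA. A higher threshold by construction cannot count more genes. Onecut1 between the ligands, and Onecut2 and Isl1 with bexarotene, lie just short of 1.5-fold, and Lhx1 between bexarotene EBs and ES cells lies just past it.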

Other observations

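Ebf1 had less signal without ligand than before differentiation, and the proneural and young neuron lists were counted in the same comparison. Of 13 proneural factors 1, and of 20 genes of all young neurons 4, were past 1.5-fold below ES cells in the untreated array, where 8.52% of all genes were. The proneural count is thus close to the share of all genes. In the other direction, 2 of each list were past 1.5-fold above ES cells, where 11.0% of all genes were. These were Nhlh1 and Olig2, with log2 differences of 0.79 and 0.71, and Elavl4 and Map2, with 1.14 and 1.09. Among the lower genes, Neurod1, a bHLH factor of maturing neurons, was 4.51-fold lower and the filament gene Ina 3.16-fold lower. Stmn2, Mapt and Syt4 were 2.29-fold, 1.61-fold and 1.52-fold lower. Syt4 was below the median of every array and Mapt below that of every EB array. Ina had a log2 signal of 10.3 with bexarotene, 10.7 with RA, 8.75 in untreated EBs and 10.4 in ES cells. For Neurod1 these values were 7.78, 8.13, 6.11 and 8.28, so both ligand arrays lay near ES cells for these 2 genes, whereas for Ebf1 they lay above.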
